A study of Mus musculus with 24 samples.

Results

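The genes described here encode the contractile apparatus of skeletal muscle: myosin heavy and light chains, sarcomeric actins, troponins, tropomyosins, and the proteins of the Z-disc, M-band and thick and thin filaments, with muscle creatine kinase (Ckm) added. They were chosen by name from a list of 49 genes, and each was read from the transcript cluster, the set of probes assigned to a locus, whose only gene symbol was that gene. Where a gene had several such clusters, the cluster with the highest mean was used. In all, 48 of the 49 were measured among 22180 genes tested; Mybph had no cluster of its own symbol and was not analysed. By the fibre type or stage they are known for, 5 measured members were classed as developmental (Myh3, Myh8, Myl4, Actc1, Tnnt2), 11 as slow, 15 as fast and 17 as structural or shared between fibre types. Ckm was placed with the fast class, although it is an enzyme and not an isoform of a filament protein.

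The RNA came from primary muscle cells grown from the quadriceps of ICR mice and was measured on 24 single-colour arrays. Dams of the undernourished groups were held to 50% of control food intake between gestation day 12.5 and birth, and dams of the control groups ate freely. Cells of all groups had first been grown on Matrigel in a serum-rich medium with basic fibroblast growth factor. Limited medium was applied overnight and contained little glucose (0.5 mM) and serum (1%), with glutamine at 1 mM and carnitine at 0.5 mM, whereas the standard medium was a differentiation medium with 5.5 mM glucose and 2% serum. This gave 4 groups of 6 arrays: undernourished limited, undernourished standard, control limited and control standard. The labels do not state the age or sex of the offspring, nor plainly whether the cells in limited medium had been differentiated beforehand. Each of 12 culture numbers (1, 4, 8, 9, 12 and 20 undernourished, 5, 10, 11, 15, 16 and 24 control) stands on 1 limited and 1 standard array. What such a number stands for is not stated, and nothing in the labels says that the arrays of a group come from separate animals, so the p-values reflect differences among arrays that can include technical ones.

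In the sarcomere, myosin heads of the thick filament pull on actin thin filaments. Troponin and tropomyosin make that pull depend on calcium, titin and nebulin set filament position and length, and the Z-disc and M-band anchor the filaments. Muscle exchanges isoforms as it matures: embryonic and perinatal myosins and cardiac-type actin and troponin come first, and slow or fast adult isoforms follow. Cultured myotubes typically hold many developmental isoforms.

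The cultures were rich in muscle transcripts. The mean level of 5 markers of fusing myocytes lay between 11.27 and 11.81 log2 signal on all arrays. That of 7 markers of satellite cells and myoblasts, with the member Des among them, lay between 9.40 and 10.06. Means of markers of endothelial cells, leukocytes, adipocytes and cardiac muscle stayed between 4.90 and 6.17, close to or below the all-gene median of 6.02. Those of 6 smooth muscle and pericyte markers, with Des among them, lay above it, between 6.69 and 7.61. They were highest in cultures 20 (7.57) and 16 (7.28). Cultures 16, 20 and 24 stood apart: their means of 8 fibroblast markers were 7.95, 8.21 and 6.88, against at most 6.07 in any other culture, and their means of 4 glial markers were 6.12, 8.13 and 5.99, against at most 5.16. These are means over the arrays of a culture. In culture 9 the fibroblast mean was 6.56 on the standard array, against 5.41 on the limited array. Dividing-cell markers (5 measured) were highest on the standard array of undernourished culture 4, at 7.59, against at most 6.53 on any other array. In cultures 9 and 12 the limited and standard arrays did not deviate from their groups together, unlike in the other 10 cultures. The medium differences of Tnni2 and Ckm, the count of risen members and some small medium differences are also given without some of these cultures. For maternal diet, the members' median and whether any member passed are given without cultures 9 and 12. That median is also given without cultures 16, 20 and 24 and without some single cultures. Other values, among them the isoform pairs and class medians, include these cultures and are not given without them. In RNA of whole cultures, fewer myotubes and less transcript per myotube cannot be told apart.

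Over both maternal diets 2 of the 48 members rose in limited medium, and both were in the fast class. Tnni2, the inhibitory subunit of fast troponin, was 1.40-fold higher in limited medium, a difference of 0.49 ± 0.11 on the log2 scale (SE, adjusted p = 0.00963, limma). Ckm, which buffers ATP at the M-band and elsewhere in muscle, was 1.38-fold higher, by 0.47 ± 0.12 (adjusted p = 0.0170). No member fell. Over all genes tested, 6.84% passed the same threshold of 0.05 on the p adjusted over all genes (3.56% higher and 3.28% lower in limited medium), and the 2 members are 4.17% of the 48, a share near that background. The members' median difference was 0.07, with 30 higher and 18 lower, against a median of 0.01 over all genes. At an adjusted p under 0.1 there were 6 members (Tnni2, Ckm, Myoz1, Myl6b, Tnnc2 and Des, all higher), against 10.5% of all genes, and no member passed when a difference of at least 0.5 was also required, against 1.2% of all genes. At an unadjusted p under 0.05 there were 9 members, where the whole table had 4504 genes (20.3%).

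**Figure D1:**
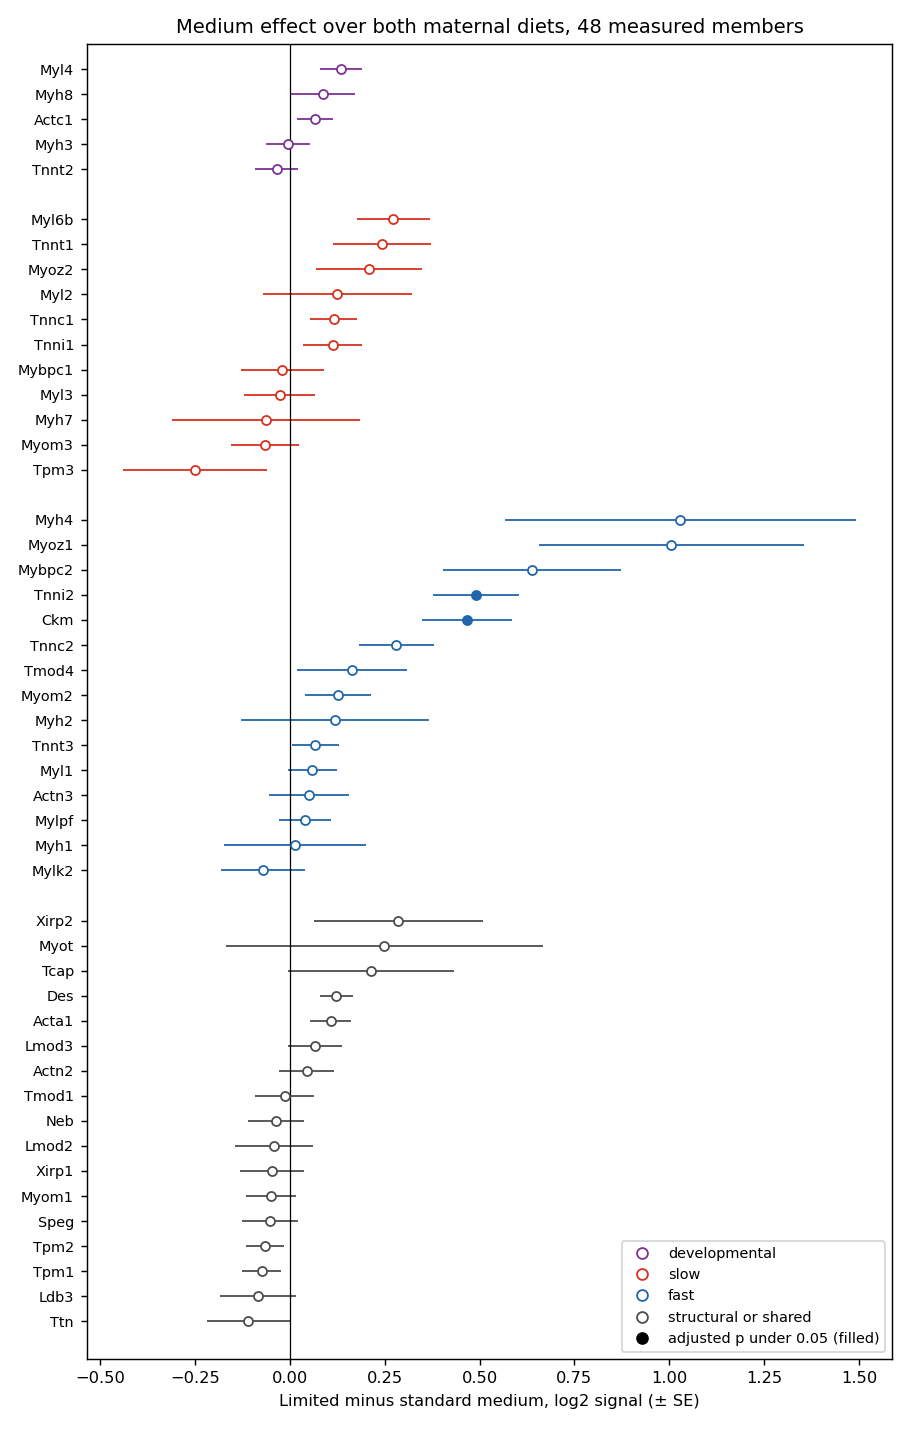
Difference between limited and standard medium over both maternal diets for each of the 48 measured members, in log2 signal, with bars of ± 1 standard error from the fit; the members are ordered by class and size, and filled points passed an adjusted p of 0.05. The filled points are Tnni2 and Ckm, while Myh4 and Myoz1 lie farthest right, near 1, with the widest bars of the fast class.

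In the following, several values for a group are its lowest, median and highest array in log2 signal. The base of the deposited logarithm is not stated and was read as 2, as RMA gives it, so every fold depends on that reading. Counts over cultures match the limited and standard array of a number as a description. The main fits do not use the number, except that of maternal diet over both media, which averages the arrays of a number. Signals of different genes are not compared as amounts of RNA, because probes differ in brightness. Tnni2 had 9.35, 9.96 and 10.35 in undernourished limited cultures, against 9.10, 9.36 and 10.09 in undernourished standard cultures. It had 9.93, 10.28 and 10.71 in control limited cultures, against 9.60, 9.78 and 9.93 in control standard cultures. The groups overlapped in both diets, the controls only at the edge, and the gene was higher in limited medium in 11 of 12 cultures, culture 9 being the exception at -0.18. Ckm had 10.38, 11.10 and 11.52 in undernourished limited cultures, against 10.19, 10.49 and 11.20 in undernourished standard cultures. In control limited cultures Ckm had 10.82, 11.15 and 11.40, against 10.50, 10.67 and 10.95 in control standard cultures. It was higher in 10 of 12 cultures, and cultures 9 and 16, both at -0.07, went the other way. The second cluster of Ckm, much dimmer, differed by 0.40 over both diets.

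In the fit by group, which leaves the culture number out, neither gene passed within a single diet. Within undernourished cultures Ckm differed by 0.50 ± 0.17 (adjusted p = 0.144) and Tnni2 by 0.46 ± 0.16 (adjusted p = 0.164), and 0 of 48 members passed, against 1.46% of all genes. Within control cultures Tnni2 differed by 0.52 ± 0.16 (adjusted p = 0.150) and Ckm by 0.43 ± 0.17 (adjusted p = 0.258), with 0 of 48 passed against 0.343% of all genes. At an unadjusted p under 0.05 limma gave 5 members in undernourished cultures, against 13.4% of all genes, and 4 in control cultures, against 13.1%. Without cultures 9 and 12, Tnni2 (0.56 ± 0.12) and Ckm (0.52 ± 0.13) still passed over both diets. Without cultures 16, 20 and 24, Tnni2 passed and Ckm did not (0.46 ± 0.14, adjusted p = 0.0513), and without culture 4 the adjusted p of Ckm was 0.0628. Over all the alternative settings run, its adjusted p lay between 0.00416 and 0.0628 and that of Tnni2 between 0.00142 and 0.0337.

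None of the 5 dividing-cell markers passed. Their median difference was -0.49 over both diets, they were higher in limited medium in 1 (Ccna2, Top2a), 3 (Mki67) or 5 (Cdk1, Birc5) of 12 cultures, and their mean level ran from 5.19 to 5.87 in undernourished limited cultures, against 5.19 to 7.59 in undernourished standard cultures. In controls it ran from 5.30 to 5.94 in limited medium, against 5.38 to 6.07 in standard medium. Their part in the rise of Tnni2 and Ckm was not tested.

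**Figure D2:**
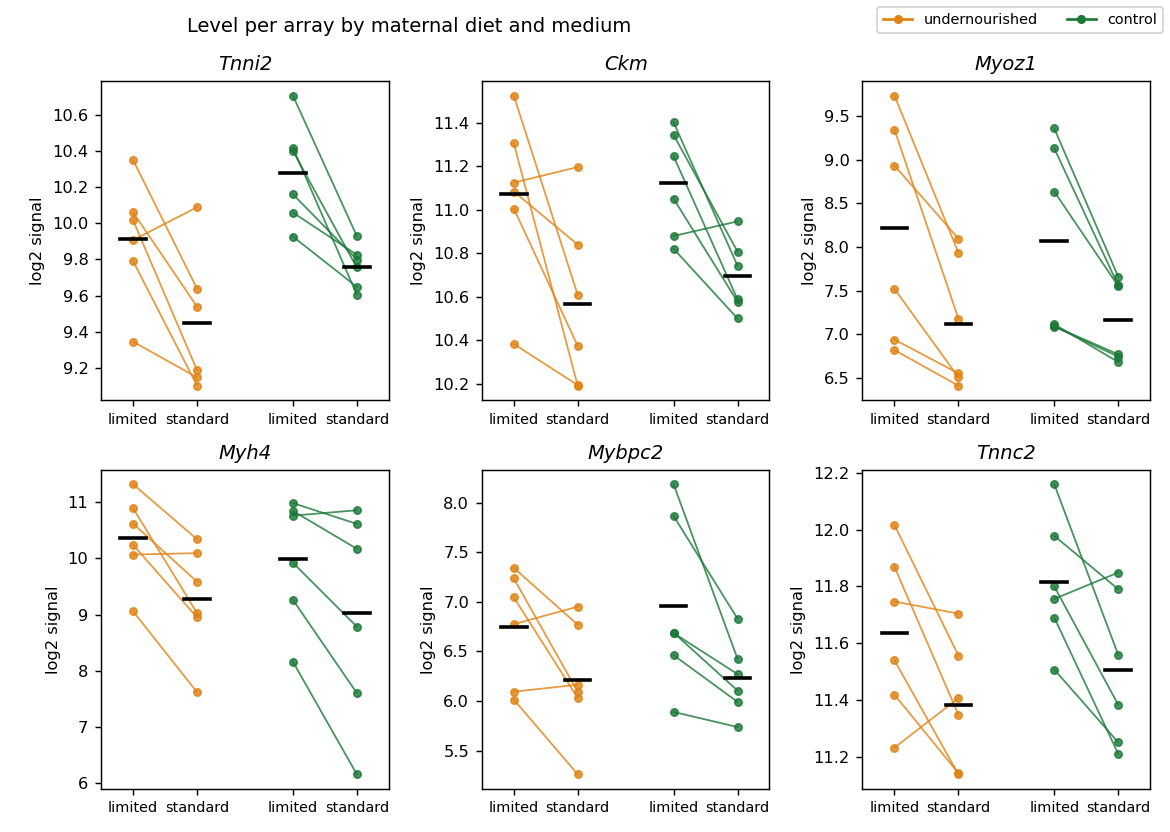
Log2 signal of 6 fast-class members on each array, by maternal diet and medium (limited left of standard); lines join the limited and standard arrays of a culture number and black bars are group means (n = 6). Most lines fall from limited to standard, and for Myoz1 all 12 do.

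Among the myosin heavy chains, the motors of the thick filament, the fast type IIB gene Myh4 showed the largest difference. None passed the threshold in the fit by group. With the culture number as a block, Myh4 passed over both diets and within each. The numbers missed the criterion for a paired fit, as described under the dependence on the processing. Myh4 had 9.06, 10.43 and 11.32 in undernourished limited cultures, against 7.62, 9.31 and 10.34 in undernourished standard cultures. In control limited cultures it had 8.16, 10.34 and 10.99, against 6.15, 9.48 and 10.86 in control standard cultures. The difference over both diets was 1.03 ± 0.46 (adjusted p = 0.201), and 10 of 12 cultures were higher in limited medium. Culture 15 was lowest in both media, and cultures 5 (-0.10) and 9 (-0.02) were the exceptions. The gene also had the largest spread between cultures of any member (SD 1.16 over 12 culture means), so the groups overlapped widely.

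The other fast heavy chains had small differences. Myh1, the type IIX chain, had 10.60, 11.69 and 12.33 in undernourished limited cultures, against 10.39, 11.76 and 12.21 in undernourished standard cultures. Its control levels were 11.49, 11.70 and 12.21 in limited medium, against 11.24, 11.87 and 12.34 in standard medium, and its difference over both diets was 0.01 ± 0.19. Myh1 was lowest in culture 8 in both media, and its medians were slightly lower in limited than in standard medium. Myh2, the type IIA chain, had 5.95, 6.61 and 7.15 in undernourished limited cultures, against 5.58, 6.26 and 7.66 in undernourished standard cultures. In controls it had 6.38, 6.96 and 7.72 in limited medium, against 5.87, 6.99 and 8.21 in standard medium (0.12 ± 0.25 over both diets). Its signal is close to the median of all genes, so it is among the dimmest members.

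Myh7, the slow heavy chain, differed by -0.06 ± 0.25 and varied most among undernourished cultures. It had 9.42, 11.16 and 12.41 in undernourished limited cultures, against 10.31, 11.35 and 11.85 in undernourished standard cultures. The lowest of these limited arrays was culture 20 and the highest culture 8, and cultures 20 (-0.89) and 9 (-0.77) held the lowest changes. In controls Myh7 had 10.71, 11.35 and 11.61 in limited medium, against 10.26, 11.51 and 11.61 in standard medium.

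Neither developmental heavy chain passed; within cultures Myh3 differed between the media by -0.14 to 0.19 and Myh8 by -0.32 to 0.39. Myh3, the embryonic chain, had 12.83, 13.03 and 13.23 in undernourished limited cultures, against 12.83, 13.00 and 13.19 in undernourished standard cultures. In controls it had 12.78, 13.03 and 13.18 in limited medium, against 12.86, 13.08 and 13.22 in standard medium, and the difference over both diets was -0.01 ± 0.06. Myh3 stood near the top of the arrays' range, whose highest values were 13.93 to 14.13, where arrays can understate a change. Myh8, the perinatal chain, had 11.13, 11.25 and 11.63 in undernourished limited cultures, against 10.79, 11.08 and 11.47 in undernourished standard cultures. Its control levels were 10.97, 11.39 and 11.59 in limited medium, against 11.19, 11.31 and 11.62 in standard medium (0.09 ± 0.09 over both diets). The other, dimmer cluster of Myh8 differed by 0.26 over both diets. Myh3, Myh2, Myh1, Myh4 and Myh8 lie next to each other on chromosome 11 and are close in sequence, so that their probes may catch more than 1 of them; how far the signals are shared was not tested.

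Light chains differed little. Myl6b, a slow-type essential light chain, had 11.75, 12.00 and 12.24 in undernourished limited cultures, against 11.06, 11.73 and 12.09 in undernourished standard cultures. In controls Myl6b had 11.77, 11.95 and 12.22 in limited medium, against 11.58, 11.79 and 11.98 in standard medium. The difference was 0.27 ± 0.10 (adjusted p = 0.0863), with 10 of 12 cultures higher and culture 20 highest at 1.03. Myl4, the embryonic and atrial light chain, differed by 0.13 ± 0.05 (adjusted p = 0.148). The fast chains Myl1 (0.06 ± 0.07) and Mylpf (0.04 ± 0.07) and the slow and ventricular chain Myl2 (0.13 ± 0.20) lay nearer to 0 in units of their error.

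Of troponin, the calcium switch of the thin filament, the fast C and I subunits had larger differences than their slow partners; the partners were not tested against each other. Tnnc2, the fast calcium-binding subunit, had 11.23, 11.64 and 12.02 in undernourished limited cultures, against 11.14, 11.38 and 11.70 in undernourished standard cultures. In controls Tnnc2 had 11.51, 11.78 and 12.16 in limited medium, against 11.21, 11.47 and 11.85 in standard medium. It was higher in 10 of 12 cultures (0.28 ± 0.10, adjusted p = 0.0923, limma) and did not pass in the fit by group. Its slow and cardiac counterpart Tnnc1 differed by 0.12 ± 0.06 (adjusted p = 0.296).

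Slow troponin I, Tnni1, had 10.84, 11.09 and 11.23 in undernourished limited cultures, against 10.75, 11.04 and 11.28 in undernourished standard cultures. In controls Tnni1 had 10.95, 11.21 and 11.45 in limited medium, against 10.67, 11.08 and 11.26 in standard medium. The difference, 0.11 ± 0.08 (adjusted p = 0.448), was small beside that of Tnni2, although 10 of 12 cultures were higher. For troponin T, which ties troponin to tropomyosin, the slow gene had the larger difference. Tnnt1 (slow) had 9.42, 9.64 and 10.08 in undernourished limited cultures, against 9.23, 9.49 and 10.01 in undernourished standard cultures. Tnnt1 had 9.70, 9.99 and 10.36 in control limited cultures, against 9.27, 9.53 and 10.39 in control standard cultures (0.24 ± 0.13, adjusted p = 0.294). The groups overlapped over most of their range, and 8 of 12 cultures were higher. Tnnt3 (fast) had 12.23, 12.47 and 12.67 in undernourished limited cultures, against 12.18, 12.48 and 12.60 in undernourished standard cultures. In control limited cultures Tnnt3 had 12.37, 12.55 and 12.81, against 12.41, 12.48 and 12.64 in control standard cultures (0.07 ± 0.06). Tnnt2, the cardiac and embryonic troponin T, differed by -0.03 ± 0.06 and was higher in limited medium in 2 of 12 cultures.

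Sarcomeric actins were bright on every array. Acta1, the skeletal actin of mature muscle, had 13.18, 13.25 and 13.41 in undernourished limited cultures, against 13.01, 13.21 and 13.31 in undernourished standard cultures. In controls Acta1 had 13.13, 13.30 and 13.42 in limited medium, against 12.90, 13.19 and 13.32 in standard medium. The difference, 0.11 ± 0.05 (adjusted p = 0.264), was small but in the same direction in 11 of 12 cultures. Actc1, the cardiac actin of developing muscle, had 13.51, 13.62 and 13.74 in undernourished limited cultures, against 13.40, 13.60 and 13.64 in undernourished standard cultures. In control limited cultures Actc1 had 13.50, 13.69 and 13.76, against 13.43, 13.60 and 13.67 in control standard cultures (0.07 ± 0.05). Both actins are near the top of the signal range and encode nearly identical proteins. How far their probes share signal was not tested. Tropomyosins, which lie along actin, differed by -0.07 ± 0.05 for Tpm1, -0.07 ± 0.05 for Tpm2 and -0.25 ± 0.19 for the slow form Tpm3. The other cluster of Tpm3 differed by 0.12, so the direction of that gene depends on the cluster read.

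Among the accessory and anchoring proteins, the largest differences were those of Myoz1 and Mybpc2. Myoz1, a Z-disc protein of fast fibres that binds calcineurin, had 6.82, 8.23 and 9.74 in undernourished limited cultures, against 6.41, 6.87 and 8.10 in undernourished standard cultures. In controls Myoz1 had 7.09, 7.88 and 9.36 in limited medium, against 6.68, 7.16 and 7.66 in standard medium. It was higher in limited medium in all 12 cultures, by 0.32 to 2.16. The difference of 1.00 ± 0.35 did not pass in the fit by group (adjusted p = 0.0854, limma). As for Myh4, it passed with the culture number as a block, with the same limit. The cultures fell apart in its level: 3 control limited arrays (10, 24 and 5) stood at 8.64 or above and the other 3 at 7.12 or below. Its slow-fibre counterpart Myoz2 differed by 0.21 ± 0.14.

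Mybpc2, the fast myosin-binding protein C, had 6.01, 6.91 and 7.34 in undernourished limited cultures, against 5.26, 6.13 and 6.95 in undernourished standard cultures. In control limited cultures Mybpc2 had 5.89, 6.69 and 8.19, against 5.74, 6.19 and 6.83 in control standard cultures. It was higher in 10 of 12 cultures (0.64 ± 0.23, adjusted p = 0.107), the highest change being 1.76 in culture 24. Desmin (Des), the intermediate filament that links Z-discs, had 12.94, 12.99 and 13.09 in undernourished limited cultures, against 12.78, 12.86 and 12.99 in undernourished standard cultures. In controls Des had 12.89, 12.98 and 13.08 in limited medium, against 12.75, 12.88 and 13.01 in standard medium. The difference was only 0.12 ± 0.04 (adjusted p = 0.0992), but Des had the smallest spread between cultures of all members (SD 0.055).

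The giant filament proteins titin and nebulin did not pass, and their direction was not shared between cultures: Ttn was higher in limited medium in 7 of 12 cultures and Neb in 6, with the lowest change of each in culture 5 (-0.84 for Ttn and -0.57 for Neb). Titin (Ttn) had 12.26, 12.54 and 12.91 in undernourished limited cultures, against 12.21, 12.62 and 12.82 in undernourished standard cultures. In controls Ttn had 12.14, 12.43 and 12.97 in limited medium, against 12.17, 12.84 and 12.98 in standard medium (-0.11 ± 0.11). Nebulin (Neb) had 12.44, 12.60 and 12.80 in undernourished limited cultures, against 12.34, 12.55 and 12.82 in undernourished standard cultures. Neb had 12.29, 12.55 and 12.71 in control limited cultures, against 12.30, 12.64 and 12.86 in control standard cultures (-0.04 ± 0.07). The 17 structural or shared members had a median difference of -0.04 and ran from -0.11 (Ttn) to 0.29 (Xirp2, an actin-binding Xin repeat protein).

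By class, the median difference over both diets was 0.07 for 5 developmental, 0.11 for 11 slow, 0.13 for 15 fast and -0.04 for 17 structural or shared members. In the fast class 14 of 15 members were higher in limited medium, all except the myosin light chain kinase Mylk2 (-0.07 ± 0.11), and the 3 members with a difference of at least 0.5 (Myh4, Myoz1, Mybpc2) were all in it. The per-culture median of the fast class was above 0 in 10 of 12 cultures (SD 0.15), of the slow class in 9 (SD 0.18), of the structural class in 7 (SD 0.11) and of the developmental class in 4 (SD 0.08). These are descriptions of overlapping distributions, and classes were not tested against each other.

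Fast and slow partners of a protein were set against each other within each culture, as the change of their log2 ratio from standard to limited medium, with no test. Of 10 fast-minus-slow pairs 8 had a mean above 0, with a median of 0.17. Myh1, Myh2 and Myh4 were all set against the same Myh7 values, so these pairs are not separate observations. Myh4 against Myh7 changed by 1.09 ± 0.56 (SD over 12 cultures) and was above 0 in 12 of 12 cultures, at 1.27 ± 0.55 in undernourished and 0.92 ± 0.56 in control cultures. Myoz1 against Myoz2 changed by 0.80 ± 0.77 (10 of 12), and Mybpc2 against Mybpc1 by 0.66 ± 0.47 (11 of 12). Tnni2 against Tnni1 changed by 0.38 ± 0.33 (11 of 12) and Tnnc2 against Tnnc1 by 0.17 ± 0.17 (10 of 12). The 2 pairs below 0 were Tnnt3 against Tnnt1 (-0.18 ± 0.41, above 0 in 4 of 12) and Mylpf against Myl2 (-0.09 ± 0.41, above 0 in 5 of 12). The remaining pairs were Myh1 against Myh7 (0.08 ± 0.43, above 0 in 5 of 12), Myh2 against Myh7 (0.18 ± 0.63, 8 of 12) and Myl1 against Myl3 (0.09 ± 0.25, 7 of 12). Only 5 of the 10 pairs were above 0 in at least 10 cultures, and 6 of the 10 means were smaller than their spread (SD) between cultures. In those 5 pairs, and for Myh2, the fast gene had the dimmer signal. In the pairs below 0 it had the brighter signal (Tnnt3 12.50 and Tnnt1 9.74, Mylpf 12.49 and Myl2 7.03). It was also brighter for Myh1 and Myl1, whose pairs were above 0. Brightness and fibre type are thus mixed in these pairs, and the part of brightness was not tested.

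Mature partners were set against developmental ones in 5 pairs. Myh4 against Myh8 changed by 0.94 ± 0.61 and was above 0 in 12 of 12 cultures. The other 4 were small: Tnnt3 against Tnnt2 0.10 ± 0.15, Acta1 against Actc1 0.04 ± 0.10, Myh1 against Myh3 0.02 ± 0.19 and Myl1 against Myl4 -0.08 ± 0.15. Each of these means is smaller than its spread between cultures.

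**Figure D3:**
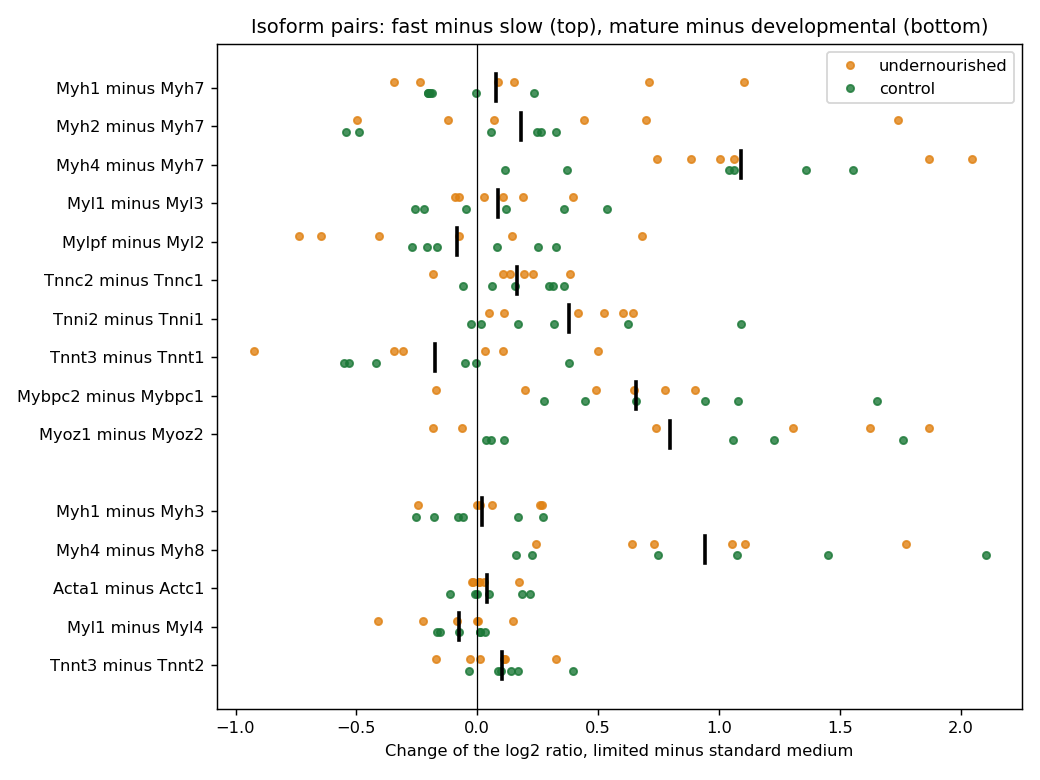
Change of the log2 ratio of isoform partners, limited minus standard medium, for 10 fast-minus-slow pairs (top) and 5 mature-minus-developmental pairs (bottom); each point is a culture (undernourished or control) and the black bar is the mean of 12. All 12 points lie above 0 for Myh4 minus Myh7 and Myh4 minus Myh8, and the points of the troponin T, Mylpf and Myl1 pairs lie on both sides of 0.

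Members differed widely in how much their level varied from culture to culture. The SD of culture means was 1.16 for Myh4, which ran from 7.16 in culture 15 to 10.83 in culture 20, and 1.03 for the Z-disc protein myotilin (Myot), which ran from 7.19 in culture 1 to 10.89 in culture 24. The next were Myoz1 at 0.84, Myh2 and Myh7 at 0.61 each, Xirp2 at 0.58, Mybpc2 at 0.54 and Tpm3 at 0.52. The steadiest were Des at 0.055, Tpm1 at 0.061, Actc1 at 0.068, Tpm2 at 0.073 and Myl4 at 0.077. The median SD was 0.24 in the fast class, 0.24 in the slow class, 0.15 among structural or shared members and 0.11 in the developmental class.

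Single cultures often held the extremes. Culture 1 had the lowest mean of all cultures for 12 of 48 members, culture 15 for 10 and culture 20 for 9, while culture 11 had the highest mean for 11 members, culture 24 for 9 and culture 10 for 8. In the change from standard to limited medium, culture 9 held the lowest value for 18 members and was higher in limited medium for only 12 of 48. The arrays numbered 9 did not deviate from their groups together (correlation -0.05 over all genes), so this may not be a change within a culture. Culture 5 held the lowest change for 9 members and had 18 of 48 higher, whereas the other 10 cultures had between 22 and 39 higher. Culture 20, with high fibroblast and glial markers, held the highest mean of Myh4 and Myoz1 and the lowest of Myh7 and Myl2; the part of other cell types in these values was not tested.

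**Figure D4:**
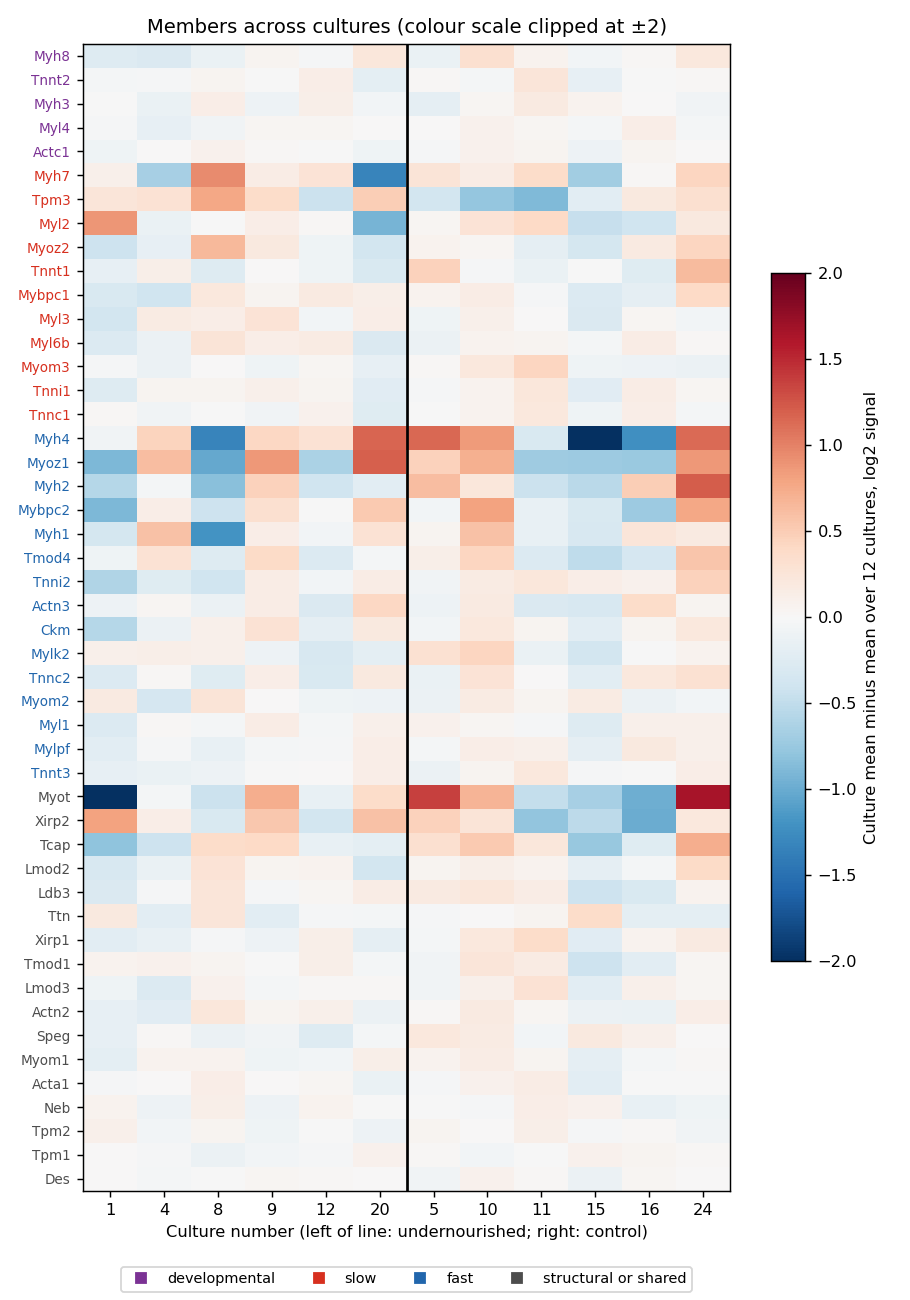
Mean of the limited and standard arrays of each culture minus the mean over 12 cultures, in log2 signal, for 48 members (rows, grouped by class and ordered by spread) and 12 cultures (columns, undernourished left of the line, control right of it). Red is above and blue below the mean, with colours clipped at 2; Myh4, Myoz1 and Myot change colour most from culture to culture, and the developmental rows are pale.

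Maternal diet moved no member past the threshold, nor any gene of the table (0 of 22180, background 0% in each medium and over both). For the effect over both media, the arrays of each culture were averaged first, giving 6 undernourished against 6 control cultures. At an unadjusted p under 0.05 limma gave 3 of 48 members over both media, against 791 of all genes (3.57%). In standard medium it gave 2 members (697 genes, 3.14%) and in limited medium 3 (1206 genes, 5.44%). Over both media 36 of 48 members were lower in undernourished cultures, with a median of -0.05 against 0.01 over all genes. Without cultures 9 and 12, a choice made after seeing the data, that median was -0.10, with 38 lower. Other exclusions moved it both ways. It was -0.10 with 40 lower without culture 15, but -0.04 with 29 lower without culture 1 and -0.04 with 32 lower without culture 10. Without cultures 16, 20 and 24 it was -0.05, with 32 lower. In standard medium 39 members were lower with all cultures, but 26 without cultures 16, 20 and 24, where the median was -0.01.

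The smallest p over both media was that of Speg, a kinase of the sarcomere and triad, at -0.21 ± 0.07 (adjusted p = 0.999). Speg had 7.04, 7.55 and 7.64 in undernourished limited cultures, against 7.24, 7.58 and 7.70 in control limited cultures. It had 7.27, 7.34 and 7.53 in undernourished standard cultures, against 7.42, 7.69 and 7.96 in control standard cultures (-0.34 ± 0.10 in standard medium). The groups met at a single control array in standard medium and overlapped widely in limited medium.

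For Tnni2 the difference between undernourished and control cultures was -0.34 ± 0.13 over both media (adjusted p = 0.999), -0.37 ± 0.16 in limited medium and -0.31 ± 0.16 in standard medium. Tpm3 was higher by 0.58 ± 0.22 in undernourished cultures over both media, but its other cluster differed by only 0.03. Tpm3 had 9.04, 9.11 and 9.90 in undernourished limited cultures, against 8.09, 8.63 and 9.32 in control limited cultures, and 8.29, 9.75 and 10.10 in undernourished standard cultures, against 8.14, 8.98 and 9.66 in control standard cultures. The low undernourished standard array of Tpm3, at 8.29, was culture 12; without cultures 9 and 12 no member passed either.

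Further members with small p values also overlapped between diets. Myh2 differed by -0.53 ± 0.28 over both media and Xirp1, a Xin repeat protein, by -0.18 ± 0.09. Xirp1 had 9.34, 9.48 and 9.76 in undernourished limited cultures, against 9.41, 9.69 and 9.88 in control limited cultures, and 9.30, 9.54 and 9.85 in undernourished standard cultures, against 9.21, 9.79 and 10.05 in control standard cultures. In standard medium Myh8 differed by -0.23 ± 0.12 and Myh2 by -0.63 ± 0.35. Over both media the other, dimmer cluster of Myh8 differed by -0.43, against -0.14 for the cluster used. That of Xirp2 differed by 0.25, against 0.46. In limited medium Xirp2 was higher by 0.76 ± 0.32 in undernourished cultures, Lmod3, a leiomodin that nucleates actin filaments, differed by -0.20 ± 0.10 and Tnnt1 by -0.29 ± 0.18 (adjusted p between 0.894 and 0.933). Xirp2 had 9.30, 9.76 and 10.62 in undernourished limited cultures, against 8.35, 9.25 and 9.79 in control limited cultures, and 8.61, 9.32 and 10.03 in undernourished standard cultures, against 8.31, 8.95 and 10.14 in control standard cultures. Lmod3 had 9.91, 10.11 and 10.32 in undernourished limited cultures, against 10.11, 10.30 and 10.70 in control limited cultures, and 9.90, 10.22 and 10.25 in undernourished standard cultures, against 9.78, 10.18 and 10.27 in control standard cultures.

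**Figure D5:**
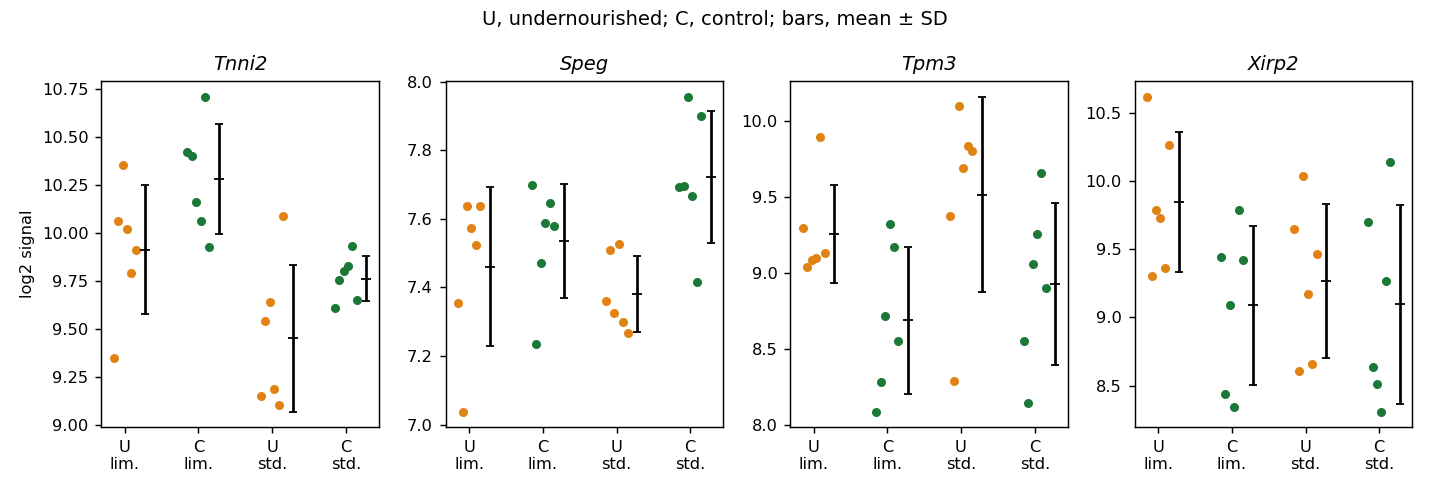
Log2 signal of Tnni2, Speg, Tpm3 and Xirp2 on each array, with undernourished (U) left of control (C) in limited and then in standard medium; bars are mean ± SD (n = 6). In every panel and medium the points of the diets overlap, and none of these differences passed the threshold.

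The medium effect did not differ detectably between the diets for any member. The test of the difference itself called 0 of 48 members and 0 of 22180 genes (background 0%), and limma gave 0 members at an unadjusted p under 0.05, against 643 genes (2.9%). Of the 5 members with the smallest p, Xirp2 had the largest value: its medium effect was 0.58 ± 0.45 higher in undernourished than in control cultures. It was followed by Speg (0.26 ± 0.15), Lmod3 (-0.24 ± 0.14), Mylk2 (-0.20 ± 0.22) and Myh8 (0.18 ± 0.17). For Myh4 (0.14 ± 0.92) and Myoz1 (0.19 ± 0.70) the error of this difference was wide in this fit, which leaves the culture number out. Unequal effects of the size of the effect itself would not have been seen in it. Level differences between cultures enter that error. The change within culture numbers had an SD of 0.69 for Myh4 and 0.66 for Myoz1.

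Of 53 other measured sarcomere and muscle membrane genes, 3 rose and 1 fell in limited medium over both diets, a share near the 6.84% of all genes that passed in either direction. Fhl3, a LIM-domain protein of muscle, rose by 0.50 ± 0.12 in 12 of 12 cultures. Jsrp1, of the junctional sarcoplasmic reticulum, rose by 0.36 ± 0.10 (11 of 12) and alpha-sarcoglycan (Sgca) by 0.29 ± 0.07 (12 of 12). Mylk4, a myosin light chain kinase, fell (-0.61 ± 0.17) and was lower in 12 of 12 cultures. The list's median was 0.00. Of 25 nonmuscle contractile genes 4 fell and none rose, against 3.28% of all genes lower and 3.56% higher, with a list median of -0.15: Cald1 (-0.43 ± 0.11), Myl12b (-0.42 ± 0.12), Vim (-0.30 ± 0.09) and Actn4 (-0.30 ± 0.08). Within each diet no member of either list passed.

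Among 19 measured regulators of muscle genes, the serum response factor Srf was the only riser and the coactivator Mrtfb the only one to fall, so 2 of 19 passed, against 6.84% of all genes. Srf, which binds the CArG box of many muscle promoters, had 8.81, 9.01 and 9.30 in undernourished limited cultures, against 8.28, 8.50 and 8.75 in undernourished standard cultures. In controls Srf had 9.02, 9.13 and 9.20 in limited medium, against 8.13, 8.49 and 8.77 in standard medium, and both pairs of groups stood apart. The rise, 0.59 ± 0.07 over both diets, also passed within undernourished (0.52 ± 0.10, adjusted p = 0.0115) and control cultures (0.66 ± 0.10, adjusted p = 0.00520). Mrtfb, which acts with Srf, differed by -0.38 ± 0.08 (adjusted p = 0.00589) and was lower in 11 of 12 cultures; its relative Mrtfa differed by -0.20 ± 0.11 and did not pass. The myogenic factors did not pass: Myod1 differed by -0.01 ± 0.11, Myog by 0.12 ± 0.09, Myf5 by 0.48 ± 0.19 and Myf6 by 0.42 ± 0.35. Neither did Mef2a (-0.15 ± 0.08), Mef2c (0.15 ± 0.10) and Mef2d (-0.01 ± 0.07), nor the fusion genes Mymk (0.02 ± 0.06) and Mymx (0.01 ± 0.14). The factors linked to fibre type or to muscle gene control, Six4 (-0.10 ± 0.09), Tead1 (-0.15 ± 0.10), Nfatc1 (-0.19 ± 0.09), Sox6 (0.04 ± 0.22), Tbx15 (0.09 ± 0.08), Prox1 (-0.34 ± 0.22) and Vgll2 (0.27 ± 0.27), did not pass either.

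Promoter windows of RefSeq (build GRCm38.p6, from 250 bases before to 50 after the gene's start) were found for 37 of the 48 members. Tnni2 and Myoz1 are among the members without a window, so the motif shares and medians below leave them out. Printed are those of Ckm, which rose, of the fast genes Mybpc2 and Myh4, whose differences were large, and of Myh3 and Acta1, a developmental and a mature gene with small differences. They lie at chr7:19410844-19411143 on the plus strand (Ckm), chr7:44524620-44524919 on the minus strand (Mybpc2), chr11:67237562-67237861 on the plus strand (Myh4), chr11:67078050-67078349 on the plus strand (Myh3) and chr8:123894726-123895025 on the minus strand (Acta1). Each is given 5′ to 3′ along the gene, and capitals mark matches, on either strand, of the E-box CANNTG, of TATAAA, of CATTCC (the M-CAT element), of the CArG box or of the MEF2 site.
Ckm: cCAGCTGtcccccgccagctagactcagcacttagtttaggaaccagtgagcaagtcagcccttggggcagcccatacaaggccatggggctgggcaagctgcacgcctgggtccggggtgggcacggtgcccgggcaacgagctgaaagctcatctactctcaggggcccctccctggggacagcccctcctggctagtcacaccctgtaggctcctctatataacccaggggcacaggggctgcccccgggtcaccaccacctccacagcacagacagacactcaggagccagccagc
Mybpc2: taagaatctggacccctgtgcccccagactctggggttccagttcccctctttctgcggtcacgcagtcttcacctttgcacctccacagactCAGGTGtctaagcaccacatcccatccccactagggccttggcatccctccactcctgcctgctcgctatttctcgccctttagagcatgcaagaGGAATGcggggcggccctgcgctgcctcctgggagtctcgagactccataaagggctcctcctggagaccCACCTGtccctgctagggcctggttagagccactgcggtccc
Myh4: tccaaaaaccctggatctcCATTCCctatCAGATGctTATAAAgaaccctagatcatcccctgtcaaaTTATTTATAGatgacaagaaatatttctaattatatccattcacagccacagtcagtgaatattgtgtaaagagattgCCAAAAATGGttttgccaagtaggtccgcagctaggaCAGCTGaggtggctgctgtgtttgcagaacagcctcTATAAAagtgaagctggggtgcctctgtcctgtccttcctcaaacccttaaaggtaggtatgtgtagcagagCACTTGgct
Myh3: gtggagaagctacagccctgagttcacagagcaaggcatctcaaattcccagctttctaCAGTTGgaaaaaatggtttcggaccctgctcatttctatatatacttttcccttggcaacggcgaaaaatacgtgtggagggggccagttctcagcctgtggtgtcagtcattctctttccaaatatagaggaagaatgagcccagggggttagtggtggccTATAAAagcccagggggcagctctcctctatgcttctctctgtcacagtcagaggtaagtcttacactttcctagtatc
Acta1: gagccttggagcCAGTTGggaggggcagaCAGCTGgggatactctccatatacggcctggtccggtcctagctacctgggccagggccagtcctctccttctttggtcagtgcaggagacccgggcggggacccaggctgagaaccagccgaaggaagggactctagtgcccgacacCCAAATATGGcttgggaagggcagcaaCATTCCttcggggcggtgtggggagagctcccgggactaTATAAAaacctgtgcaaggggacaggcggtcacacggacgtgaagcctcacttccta

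The Myh4 window held matches of all 5 motifs, with its MEF2 match overlapping a TATAAA match on the other strand. A CArG box was in the windows of Acta1 and Myh4 and not in those printed for Ckm, Mybpc2 and Myh3. Over all members with a window, a CArG box was in 6 of 37 (16.2%), against 1.8% of 27025 genes: Acta1, Actc1, Ldb3, Myh4, Myl3 and Myom1. A MEF2 site was in 8 (21.6%, against 3.7%), CATTCC in 13 (35.1%, against 16.6%), TATAAA in 10 (27.0%, against 15.7%) and an E-box in 32 (86.5%, against 75.0%). The median medium difference was 0.02 for the 6 members with a CArG box and 0.06 for the 31 without, and 0.05 for the 8 with a MEF2 site and 0.06 for the 29 without. It was 0.10 for the 10 with TATAAA and -0.01 for the 27 without. For CATTCC it was -0.01 for the 13 with a match and 0.10 for the 24 without. For the E-box it was 0.06 for the 32 with a match and 0.01 for the 5 without. None of these splits was tested. A match describes letters in this window and is not evidence of binding.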

How the data were processed

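Total RNA of primary muscle cells was hybridised to 24 arrays after biotin labelling, per the labels' protocols. The deposited table gives 41345 transcript clusters on a log scale, read here as log2 signal; per the submitters' processing notes the authors used RMA (background correction, quantile normalization, probe summary) in Affymetrix Expression Console. Tool versions, the log base and the genome build: not given in the sources used here. Clusters with exactly 1 symbol (23521) were kept, their symbols were brought up to date from RefSeq by Entrez number (23328 matched), and the highest-mean cluster per gene left 22180 genes, none filtered.

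Each gene was fitted with limma 3.58.1 in R 4.3.3 (lmFit, eBayes) over 4 groups of 6 arrays. P-values were two-sided and adjusted by Benjamini-Hochberg over the 22180 genes, and 0.05 was the threshold. Maternal diet over both media used culture means. The fit was also run on simulated data. Those arrays were drawn independently with no culture effect, so that run cannot show how leaving out the culture number affects the fit. Members and lists were chosen with earlier results of these data known. Group values are given for called members, for the 5 members of smallest p where under 5 passed, and for fixed anchors of each class. The number of arrays limits the precision, and no detection calls were used.

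Alternatives were a second quantile normalization, median centring, averaged clusters, an intensity filter, an intensity trend, array weights, the second title number as covariate, fits of single contrasts, the culture number as block, other thresholds, and leaving out cultures.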

Additional observations from a re-analysis of the deposited data

Results flagged for a closer look

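In 10 of the 192 groups of 6 arrays examined (48 members in 4 groups), the highest or lowest array lay far from the others by Dixon's criterion; chance alone gives about 1 in 20 groups, close to this number. In undernourished limited cultures, culture 20 was far above the others for Myh8, at 11.626, with the next array at 11.30, and for Actn3 (fast alpha-actinin), at 12.473. In the same group culture 8 was far above for Tpm3, at 9.896, and for the slow Z-disc gene Myoz2, at 10.985, and culture 1 was far below for the light chain Myl1, at 11.618. In control limited cultures, culture 15 was far below for Myl1, at 11.615, and culture 11 far above for the leiomodin Lmod3, at 10.704. In control standard cultures, culture 11 was far above for Tnnt3, at 12.641, and culture 15 far below for Lmod3, at 9.779. In undernourished standard cultures, culture 4 was far below for Lmod3, at 9.904. Lmod3 is thus listed in 3 of its 4 groups.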

How the results depend on the processing

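The count of 2 risen members over both diets stayed at 2 under most alternatives; the exceptions were 4 with array weights (Ckm, Myoz1, Tnnc2, Tnni2), 1 without cultures 16, 20 and 24 (Tnni2), 6 at an adjusted p under 0.1, where the background was 10.5%, and 0 when a difference of at least 0.5 was also required. Leaving out each culture in turn gave 1 to 3, with 1 without undernourished culture 4 (Tnni2). The labels do not say what a culture number shares, and the numbers missed the criterion for a paired fit, a correlation over 0.1 in every culture: same-numbered arrays deviated together over all genes with a correlation over 0.1 in 10 of 12 cultures, but at -0.05 in culture 9 and 0.02 in culture 12, and 20 of 24 arrays correlated best with their own number. With the culture number as a replicate block, 7 members passed over both diets (Ckm, Mybpc2, Myh4, Myl6b, Myoz1, Tnnc2, Tnni2; 11.7% of all genes passed), 5 in undernourished cultures (Ckm, Myh4, Myoz1, Tnni2, Xirp2; 4.54% of all genes) and 4 in control cultures (Mybpc2, Myh4, Myoz1, Tnni2; 2.48% of all genes). The block called no member for maternal diet or for the difference between diets. The median of the developmental class in control cultures, 0.00, moved to -0.0590 after a second quantile normalization and to 0.0758 with averaged clusters. Differences near 0 changed sign: Myh7 to 0.0125 without cultures 9 and 12, Myh3 to 0.00622 without cultures 16 and 20, and Myh1 to -0.0242 after a second quantile normalization, -0.0160 without cultures 16 and 20 and -0.0251 without cultures 16, 20 and 24. Leaving out single cultures gave -0.0778 to 0.0118 for Neb, -0.0162 to 0.230 for Myh2, -0.135 to 0.00938 for Myh7, -0.0250 to 0.0102 for Myh3 and -0.0171 to 0.0475 for Myh1. Leaving out cultures 9 and 12 was chosen after seeing the data. The cause of these changes was not tested.

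Members near the top of the signal range (Actc1, Acta1, Tnnt2, Myh3) can show less change than occurred, and Myl3, Tmod4, Mybpc2 and Myh2 lie near the median of all genes, with no detection calls to tell signal from background.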
